A study of Homo sapiens with 4 samples.

Results

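HCC827 is an established human lung adenocarcinoma cell line that depends on an activated epidermal growth factor receptor (EGFR), and the comparison described here sets HCC827 cells labelled resistant to gefitinib against HCC827 cells labelled sensitive to it. Each group was 1 library, made from total RNA with an mRNA library kit. Genes were matched by NCBI Gene ID between the 2 libraries, a gene missing from a library was taken as 0, and a gene was considered where its level was at least 1 FPKM (fragments per kilobase of transcript, scaled to the depth of the library) and its expected count at least 20 in either library. Of 15817 genes listed in either HCC827 library, 11889 were considered. The series also holds 2 libraries of H1975, a second lung adenocarcinoma line, labelled sensitive or resistant to osimertinib, and 17490 genes were listed in at least 1 of its 4 libraries. The labels do not say how the resistant lines were derived, whether they are clones or mixed populations, or whether drug was present when RNA was taken.

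Gefitinib blocks the kinase of EGFR, which otherwise passes growth signals through RAS and ERK and through PI3K and AKT. Cells that keep growing under such drugs are known to do so by several routes, among them other receptor kinases, a shift from an epithelial to a mesenchymal state, and changes in survival and inflammatory signalling. The epithelial state is held by factors such as GRHL2, OVOL1 and the splicing regulator ESRP1, and is opposed by the repressors ZEB1, ZEB2 and SNAI2. NF-kappaB drives chemokine and acute phase genes, while factors such as IRF9 drive interferon-stimulated genes.

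The expected counts summed to 10934558 for sensitive and 11034837 for resistant HCC827, and 14986 and 15159 genes were listed. Paired values below give the sensitive library first and the resistant library second. With 1 library a group there is no replicate check and no p-value: a log2 ratio of scaled counts (resistant over sensitive) is given with an exact 95% interval that covers counting error only. A gene is called higher or lower where the ratio was at least 2-fold and its interval excluded 0. A gene at 0 counts in 1 library was set there to a floor of 3 counts, or to its count at 0.01 FPKM where larger. Folds given at the floor rest on this setting and are not limits of the interval. For SERPINB2, for example, the log2 ratio at the floor was 7.66 and the interval started at 7.36. Of the 12 lung adenocarcinoma markers checked, 12 and 11 were listed, and 11 were called lower. Their summed levels were 7427 and 2154 FPKM, most of it keratins. Of 20 leukocyte markers 2 were considered and 0 called, with summed levels of 94.6 and 108 FPKM, nearly all of it CD68 (88.0 and 100.2 FPKM), a lysosomal gene that epithelial lines also express, while CD3E and MS4A1 were listed in neither library. The 10 endothelial markers summed to 1.20 and 1.34 FPKM. The 11 fibroblast and smooth muscle markers summed to 2.26 and 6.01 FPKM, with 1 called higher (LUM, 0.13 and 2.83 FPKM) and DCN and THY1 listed in neither. In a bulk library, fewer cells that express a gene and less RNA per cell cannot be told apart. Of the considered genes, 68.1% had whole expected counts. A count that is not whole had reads shared between similar sequences, so levels in families of close copies (keratins, CLDN3 and CLDN4, MX1, IFIT1 and IFIT3, MAGEA6 and those marked below) are less certain.

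In resistant HCC827, 841 genes (7.07% of those considered) were called higher and 1296 (10.9%) lower. At 4-fold or more, 309 were higher and 458 lower, and at 16-fold or more 93 and 141. The genes called lower held 12.3% of all counts in the sensitive cells and 3.93% in the resistant cells, and those called higher held 1.74% and 5.65%. The log2 ratio had a median of 0.00, a 5th percentile of -1.69 and a 95th of 1.26. Calls were more frequent among weakly expressed genes: of 4 equal groups by level, the lowest had 36.0% called and the highest 8.82%. Counts of called list members below stand beside these shares of all considered genes. In the plot of levels in both libraries, the strongest differences sit at the edges, where a gene was near 0 on one side.

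**Figure D1:**
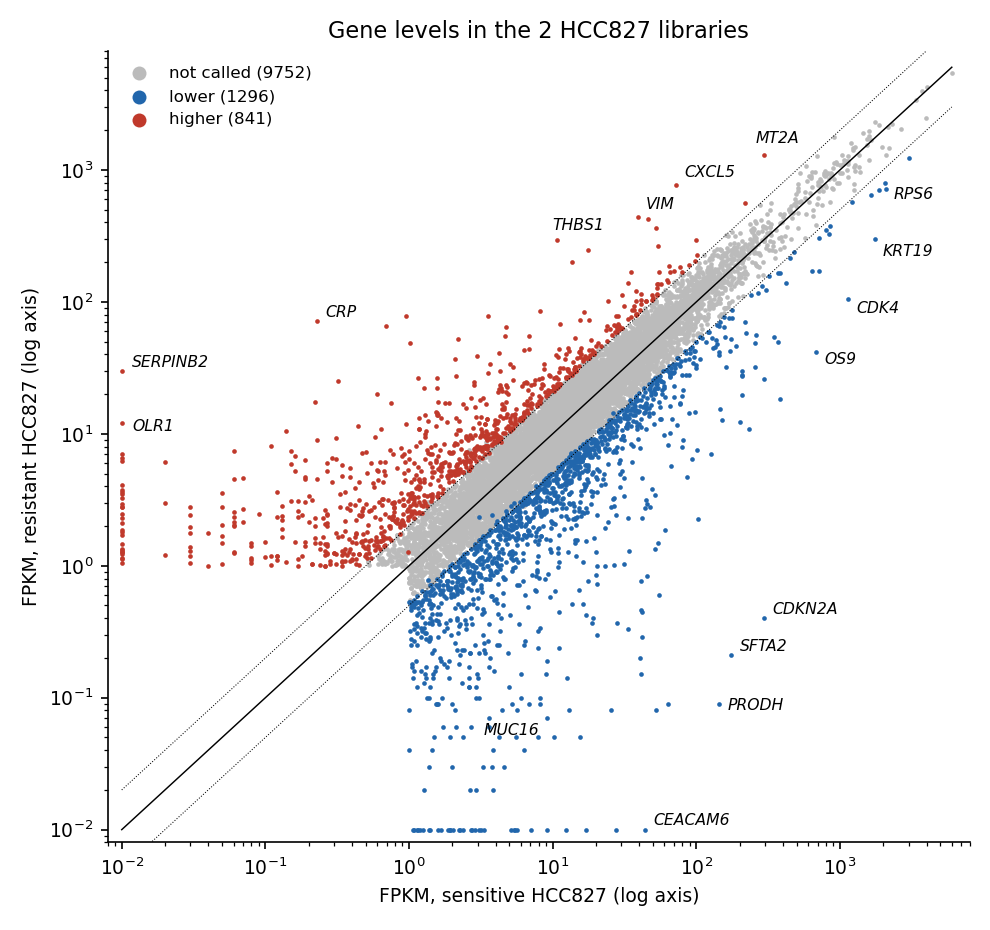
FPKM of each of the 11889 considered genes in the sensitive (x axis) and resistant (y axis) HCC827 library, both on log axes, with a gene not listed drawn at 0.01. The solid line marks equality and the dotted lines 2-fold; 841 genes called higher are red, 1296 called lower are blue, and CRP, SERPINB2, PRODH and CDKN2A lie far from the line.

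Several genes with few or no counts in the sensitive cells had a clear level in the resistant cells. SERPINB2, an inhibitor of plasminogen activators, was not listed in sensitive cells and had 30.0 FPKM (635 counts) in resistant cells, 202-fold higher at the floor. CRP, the C-reactive protein of the acute phase, was at 0.23 and 71.4 FPKM (5 and 1591 counts), a log2 ratio of 8.25 (interval 7.02 to 9.87). OLR1, a scavenger receptor for oxidised lipoprotein, had 0 and 337 counts, 107-fold higher at the floor. TENM3, a teneurin of synaptic adhesion, had 0 and 429 counts, 137-fold higher at the floor. CADM1, a cell adhesion molecule, had 1 and 294 counts, and the collagen gene COL12A1 had 6 and 895. IL32, an inflammatory cytokine, was at 0.69 and 65.2 FPKM, 86.3-fold higher. ANO2, a chloride channel, had 0 and 115 counts, and CYRIA, a regulator of the actin cytoskeleton, had 1 and 156. In all, 7 genes went from under 0.5 to at least 10 FPKM: CRP, KRTAP2-3, OLR1, P3H3, SERPINB2, TMEM52B and TNIP3. KRTAP2-3, TMEM52B and TNIP3 had counts that were not whole.

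In the other direction 27 genes went from at least 10 to under 0.5 FPKM. The widest gap was that of PRODH, the mitochondrial enzyme that starts proline breakdown, at 144 and 0.09 FPKM (3375 and 2 counts), a log2 ratio of -10.79 (interval -13.83 to -8.93). SFTA2, a surfactant-associated gene, was at 175 and 0.21 FPKM. AGR2, a chaperone of mucin folding, was at 63.5 and 0.09 FPKM. RAB25, an epithelial trafficking GTPase, was at 52.4 and 0.08 FPKM. CEACAM6, a surface glycoprotein with close paralogs and counts that were not whole, had 1241 and 0 counts, 433-fold lower at the floor. ADGRF1, an adhesion G protein-coupled receptor, had 1520 and 0 counts, 530-fold lower at the floor. Among the 15 genes called lower whose intervals lay farthest from equality were also CDKN2A, ALPG, GRHL2, MUC16, TMPRSS13, NKX2-1, KLK6, NAALADL2 and MLLT3. The ratios of ALPG, TMPRSS13 and NAALADL2 rest on the floor, since these had 0 counts in the resistant cells.

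The largest shifts in level, rather than in ratio, fell on abundant genes. Of the 10 largest drops in FPKM, 7 were in genes called lower. The keratins KRT19, KRT8 and KRT18, which form the filaments of simple epithelia, went from 1741, 2082 and 1872 FPKM to 297.0, 719.5 and 703 FPKM. TMSB10, an actin-binding peptide, went from 3025 to 1228 FPKM. HMGA1, a chromatin protein, went from 1636 to 641 FPKM, and CDK4, the kinase of G1 progression, from 1141 to 106 FPKM. The drops of FTH1, HSPB1 and RPS4X were under 2-fold. Among the 10 largest gains, MT2A, a metal-binding metallothionein, went from 294 to 1296 FPKM, CXCL5, a neutrophil chemokine, from 72.2 to 765 FPKM, and VIM, the mesenchymal filament vimentin, from 39.2 to 437 FPKM, and these 3 were called higher. MT2A, CXCL5 and VIM had expected counts that were not whole. The other gains, UBB, FTL, RPL19, NPM1, ACTG1, TUBB and RPL23, were under 2-fold.

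Genes called lower lay side by side on the chromosomes in several places. Along the RefSeq gene order, 33 runs of at least 4 considered neighbours were called in the same direction, 7 higher and 26 lower, and 16 of the lower runs were on chromosome X, 3 on chromosome 9 and 3 on chromosome 12. The limits of the stretches described next, and the single genes named in them, were chosen after the values were seen. The files hold RNA levels, and the state of the DNA in these stretches was not tested.

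On chromosome 9, 13 considered genes in a row from MLLT3 to C9orf72 were all called lower. Their counts summed to 7760 and 56, no gene had more than 23 counts in the resistant cells, and 5 (DMRTA1, TUSC1, CAAP1, IFT74 and C9orf72) were not listed there. CDKN2A, which encodes the CDK4 inhibitor p16, was at 295 and 0.40 FPKM (3759 and 5 counts), a log2 ratio of -9.62 (interval -11.24 to -8.40). Its neighbour CDKN2B, the p15 inhibitor, had 165 and 1 counts. MTAP, the enzyme of methionine salvage next to them, had 1113 and 17 counts, and FOCAD had 553 and 23. The counts of these 4 genes were not whole. Both sides of this stretch differed from it. ACO1, the first considered gene beyond C9orf72, was at 20.1 and 22.1 FPKM and was not called. Toward the start of the chromosome, from WASHC1 to ACER2, 28 of 41 genes were called lower with a median log2 ratio of -1.33, among them RPS6, a protein of the small ribosomal subunit (2058 and 802 FPKM), JAK2, CD274, which encodes PD-L1, and the lung transcription factor NFIB (18.9 and 4.96 FPKM). PSIP1, a chromatin reader within it, had 1194 and 14 counts. From ACO1 to the end of the chromosome the median was -0.40 and 75 of 421 genes were called lower. In H1975 the same 13 genes had a median log2 ratio of 0.14, with 0 called lower.

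On chromosome X the change began at KLF8. The 155 considered genes before it had a median log2 ratio of 0.00, with 10 called lower, and the 242 from KLF8 on had a median of -1.10, with 143 (59.1%) called lower and 219 below 0. PGK1, a glycolytic enzyme often used as a housekeeping reference, was at 639 and 172 FPKM, a log2 ratio of -1.94 (interval -1.99 to -1.90). XIAP, an inhibitor of caspases, was at 17.4 and 7.34 FPKM. DIAPH2, a formin, had 266 and 0 counts, 92.7-fold lower at the floor, and PBDC1 had 74 and 1. The stretch also held 10 genes called higher, among them GPC4, a glypican (1 and 50 counts), MAGEC2, a cancer-testis antigen (5 and 200 counts), and NRK (3 and 95 counts). In H1975 the genes from KLF8 on had a median of -0.02, with 9 called lower. The stretches from WASHC1 to C9orf72 and from KLF8 on together held 184 of the 1296 genes called lower (14.2%), 17 of them members of the pathway lists used here, such as CDKN2A, CD274, RPS6, COL4A5, EFNB1, NDUFA1, PGK1 and XIAP. Without chromosomes 9 and X, 1024 of 11000 genes (9.31%) were lower and 810 (7.36%) higher.

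On chromosome 12 a group of genes around CDK4 was called lower. CDK4 had 25143 and 2356 counts, a log2 ratio of -3.48 (interval -3.54 to -3.42). OS9, a lectin of endoplasmic reticulum quality control, was at 677 and 42.0 FPKM, and PIP4K2C, a lipid kinase, at 380 and 18.4 FPKM. TSPAN31 was at 67.0 and 5.72 FPKM, and AGAP2 at 14.3 and 1.57 FPKM. TSPAN31 lies end to end with CDK4 and neither had a whole count, so the split between them is uncertain. In sensitive H1975 the levels of CDK4, OS9, PIP4K2C, TSPAN31 and AGAP2 were 142, 115, 44.0, 13.2 and 3.30 FPKM, so the resistant HCC827 levels lay below them and the sensitive ones above. The genes between and beside them did not share the direction: DTX3 (2 and 34 counts), B4GALNT1 (76 and 285) and CYP27B1 (6 and 45) were called higher, and DCTN2, MARCHF9 and METTL1 were not called. Farther along, TBK1, the kinase that activates interferon production, was lower at 89.3 and 14.5 FPKM. MDM2, beyond it, was at 6.79 and 7.23 FPKM.

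**Figure D2:**
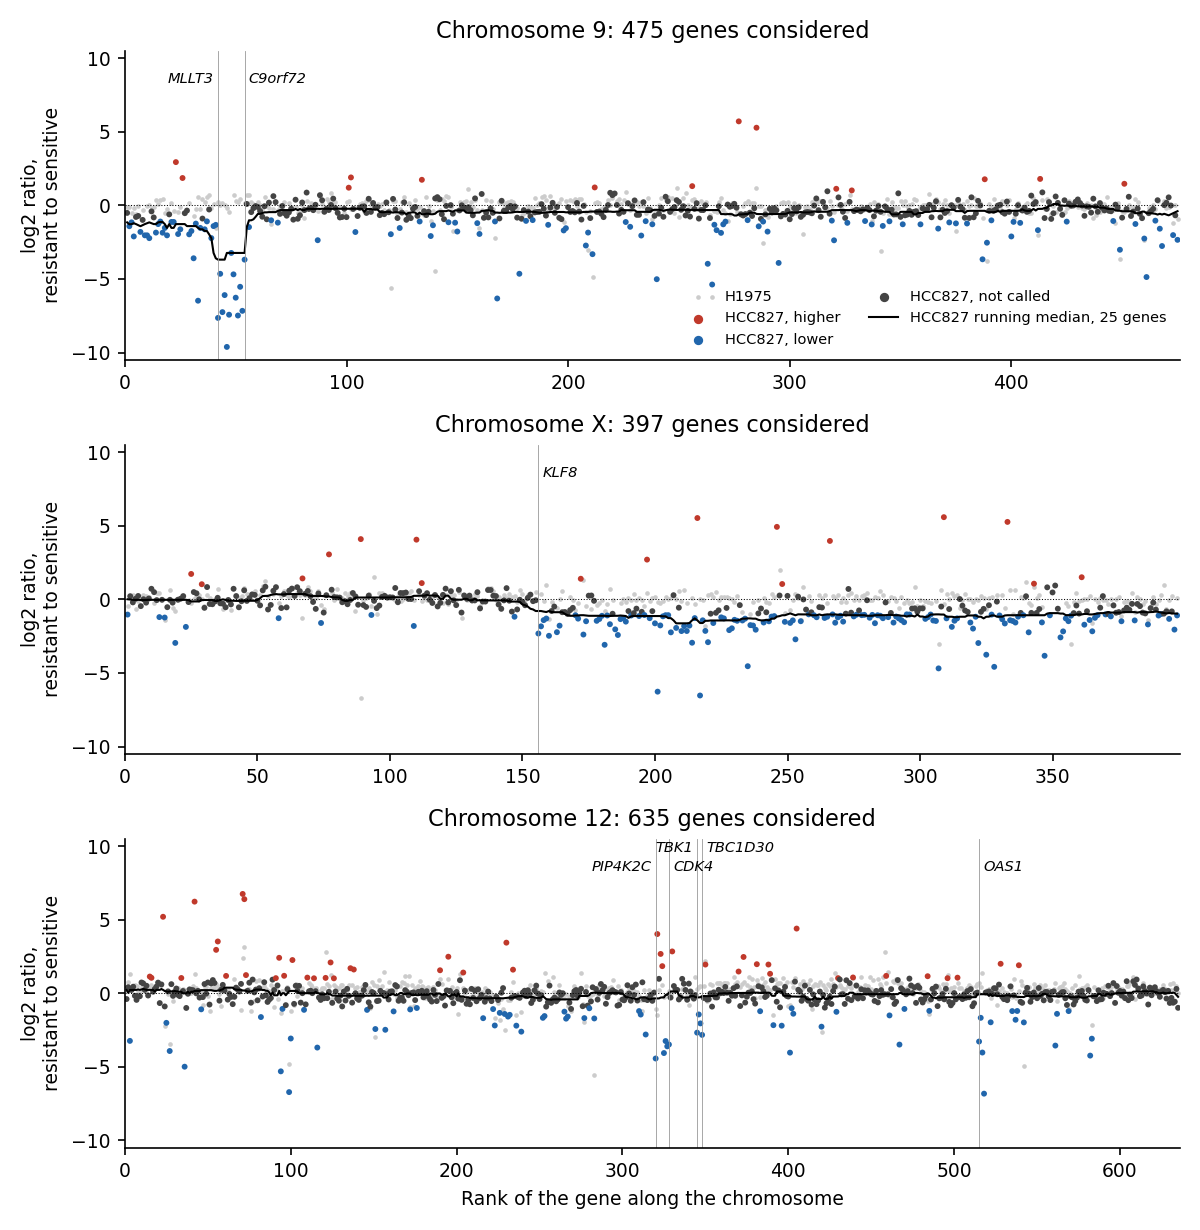
Log2 ratio of resistant to sensitive HCC827 for each considered gene of chromosomes 9, X and 12 (y axis), in the order of the genes along the chromosome (x axis, rank), coloured by call, with the running median of 25 genes as a line and the same genes in H1975 in light grey. The drop to a median of -6.27 between MLLT3 and C9orf72, the step at KLF8 and the low group around CDK4 stand out in HCC827, where the same stretches of H1975 have medians of 0.14, -0.02 and -0.15.

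Several other runs held members of gene families. On chromosome 4 the chemokine genes CXCL8, CXCL1, CXCL5, CXCL3 and CXCL2 were higher, on chromosome 18 SERPINB4, SERPINB3, SERPINB7 and SERPINB2 were higher, on chromosome 17 the keratin genes KRT15, KRT19, KRT14 and KRT16 were lower, on chromosome 12 OAS1, OAS3 and OAS2 were lower, and on chromosome 7 the claudin genes CLDN3 and CLDN4 were lower in a run with ABHD11, METTL27 and LIMK1. Runs of unrelated genes were also found, such as TLN2, TPM1, LACTB and RPS27L on chromosome 15 and CTPS1, SCMH1, FOXO6 and EDN2 on chromosome 1, all called higher.

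The transcription and splicing factors of the epithelial state were lower as a group: 12 of 17 considered members were called lower and 0 higher, with a median log2 ratio of -2.05, against 10.9% called lower and a median of 0.00 among all genes. The lists here and below were chosen with earlier results of these data known, so their shares describe the members and were not tested. GRHL2, a factor that activates junction genes, was at 15.6 and 0.05 FPKM. OVOL1, which represses mesenchymal genes, was at 8.10 and 0.09 FPKM, and ESRP1, the epithelial splicing regulator, at 103 and 2.26 FPKM. ESRP2 (log2 ratio -0.02) and KLF5 (-0.90) were not called. On the opposing side 5 of 8 factors of the mesenchymal transition were higher and 0 lower. ZEB1 was at 0.83 and 5.46 FPKM, ZEB2 at 0.05 and 1.67 FPKM, and SNAI2 at 1.56 and 22.1 FPKM, while SNAI1 was at 7.10 and 6.14 FPKM and was not called.

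Genes that build epithelial contacts were lower across several structures. In the desmosome, the junction that anchors keratin, 7 of 9 members were lower, from PPL, which links keratin to the membrane (18.9 and 0.37 FPKM), to JUP, the plaque protein plakoglobin (348 and 53.9 FPKM). In the tight junction 9 of 19 members were lower and 2 higher. CLDN7 was at 151 and 12.8 FPKM and TJP3 at 19.5 and 1.61 FPKM, whereas CLDN1, another claudin, was higher at 6.83 and 55.1 FPKM. CDH3, the placental cadherin, was at 232 and 10.9 FPKM, CDH1, the epithelial cadherin, at 189 and 46.3 FPKM, and CDH6 was higher at 0.34 and 4.77 FPKM. The laminin receptor chain ITGB4 was at 42.0 and 4.66 FPKM, ITGB6 at 20.4 and 0.99 FPKM, and COL17A1, the hemidesmosomal collagen, at 33.8 and 1.30 FPKM. Among epithelial serine proteases and their inhibitors 9 of 10 were lower, with a median log2 ratio of -4.14. KLK6 was at 40.8 and 0.20 FPKM, the membrane protease ST14 at 126 and 7.04 FPKM, its partner PRSS8 at 44.2 and 2.74 FPKM, and their inhibitor SPINT1 at 76.4 and 16.9 FPKM. SPINT2 (log2 ratio -0.82) was not called.

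ZEB and SNAI repressors bind the E-box CACCTG, so this motif was counted on both strands of RefSeq promoters (GRCh38.p14, 250 bases before to 50 after the start), which were found for 9772 (82.2%) of the considered genes. A match was present in 26.4% of the 982 promoters of genes called lower, in 18.5% of the 650 of genes called higher, in 17.6% of the 8140 of genes not called, and in 20.6% of all 27195 promoters. Without chromosomes 9 and X the share among genes called lower was 27.9%. Base composition was not matched between these groups, and a match is a description and not a bound site. The sequences shown are the bases before the start of 4 epithelial genes that were called lower and hold the motif, printed 5′ to 3′ on the gene's strand, with the E-box in capitals on whichever strand it lies (CAGGTG when read on the other strand).
CRB3 (chr19:6464021-6464270, plus strand): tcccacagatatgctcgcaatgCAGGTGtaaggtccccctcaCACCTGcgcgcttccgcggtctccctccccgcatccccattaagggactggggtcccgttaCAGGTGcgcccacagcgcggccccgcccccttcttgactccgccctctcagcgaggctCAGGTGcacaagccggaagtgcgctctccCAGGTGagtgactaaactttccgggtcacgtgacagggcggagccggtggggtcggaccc
MUC1 (chr1:155192916-155193035, minus strand): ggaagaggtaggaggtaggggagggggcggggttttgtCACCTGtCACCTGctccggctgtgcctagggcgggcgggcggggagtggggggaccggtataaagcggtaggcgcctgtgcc
DSP (chr6:7541551-7541670, plus strand): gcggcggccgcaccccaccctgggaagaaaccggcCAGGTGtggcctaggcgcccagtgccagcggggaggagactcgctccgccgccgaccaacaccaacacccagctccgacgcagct
ITGB6 (chr2:160200273-160200392, minus strand): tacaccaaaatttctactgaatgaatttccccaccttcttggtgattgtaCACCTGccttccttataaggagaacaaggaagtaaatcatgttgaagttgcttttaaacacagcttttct
CRB3, an apical polarity protein, had 5 matches in this window and was at 19.1 and 8.84 FPKM (226 and 102 counts, not whole). MUC1, a membrane mucin with 2 adjacent matches, was at 206 and 28.1 FPKM. DSP, the desmosomal plaque protein desmoplakin, had 1 match in the printed bases and a second farther from the start, and was at 33.8 and 13.1 FPKM, and ITGB6 had 1. The number of matches and the size of the change did not follow each other among these 4 genes: CRB3 had the most matches and the smallest log2 ratio (-1.21), and ITGB6 had 1 match and the largest (-4.44).

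Of 19 contractile actin genes 6 were called higher and 0 lower, against 7.07% and 10.9% of all considered genes. They were led by TAGLN, an actin-bundling protein of smooth muscle (1.18 and 13.2 FPKM), and MYL9, a myosin light chain (3.66 and 34.0 FPKM). THBS1, a matrix glycoprotein that activates TGF-beta, was at 10.7 and 292 FPKM (856 and 23611 counts), a log2 ratio of 4.72 (interval 4.62 to 4.82). Of 10 considered collagens 4 were higher and 3 lower, and among the higher COL6A2 was at 0.11 and 8.02 FPKM and COL6A1 at 2.37 and 16.7 FPKM. Among the 7 laminins 3 were lower and 0 higher, so the matrix lists did not share a direction. Of 5 considered genes of the plasminogen system 3 were higher and 1 lower, with a median log2 ratio of 3.23. PLAU, a plasminogen activator, was lower at 177 and 75.5 FPKM. ANKRD1, a target of YAP and TEAD, was at 1.01 and 48.5 FPKM, while CCN2, another such target, had a log2 ratio of 0.01. Of 23 considered targets on the Hippo pathway list, 8 were higher and 3 lower, with a median log2 ratio of 0.55. INHBA, an activin subunit, had 0 and 77 counts, 24.5-fold higher at the floor.

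Of 30 considered genes of the lung and secretory programme 17 were lower and 4 higher, and most of those lower were mucins and secretory genes. Of 8 lineage transcription factors 4 were lower and 3 higher. Of 9 alveolar genes 3 were lower and 1 higher, with a median log2 ratio of -0.27. NKX2-1, the lineage factor of lung epithelium, was at 25.4 and 0.08 FPKM (630 and 2 counts), and NAPSA, the aspartic protease of surfactant processing, at 42.1 and 0.29 FPKM. Of 13 mucin and secretory genes 10 were lower and 0 higher, with a median log2 ratio of -4.23: MUC16 had 4404 and 33 counts, MUC5B 8354 and 466, and MUC4 1157 and 18. ABCA3, the lipid transporter of surfactant storage, went against this at 1.79 and 17.0 FPKM. So did GATA6 (3.22 and 10.3 FPKM) and HNF4A, a gut and liver factor (1.71 and 6.05 FPKM), which were called higher. SFTPB was at 1.21 and 1.05 FPKM and was not called.

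Interferon-stimulated genes, which restrict viruses and are switched on by IRF9 and its partners at a DNA element called ISRE, were lower: of 47 considered, 29 were called lower and 3 higher, with a median log2 ratio of -1.41. MX1, a GTPase that traps viruses, was at 16.2 and 0.51 FPKM. OAS2, a sensor of double-stranded RNA, was at 3.32 and 0.23 FPKM, and IFI44 at 49.5 and 3.82 FPKM. ISG15, a ubiquitin-like modifier, was at 77.2 and 17.2 FPKM. IRF9 itself was lower at 30.2 and 5.20 FPKM, while STAT2 (log2 ratio -0.79) was not called. GBP1, GBP2 and IFITM2 were higher. In H1975, where 3.4% of 11871 genes were called higher and 8.35% lower, 5 of 51 such genes were higher and 2 lower, with a median of 0.29.

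The ISRE core GAAANNGAAA, searched on both strands in the same window, was found in 16 of the 23 promoters (69.6%) available for the interferon-stimulated genes called lower, in 3.65% of all promoters and in 2.64% of those of considered genes. Among all genes called lower the share was 4.18%, and among genes called higher 3.38%. Genes of this list were chosen for their known response to interferon, so the motif describes what they are. The promoter sequences of 4 of them follow, with the ISRE core in capitals on whichever strand it lies.
IFIT1 (chr10:89392503-89392622, plus strand): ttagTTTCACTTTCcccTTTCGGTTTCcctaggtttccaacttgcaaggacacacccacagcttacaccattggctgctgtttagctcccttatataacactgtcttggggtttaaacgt
IFIT3 (chr10:89327837-89327996, plus strand): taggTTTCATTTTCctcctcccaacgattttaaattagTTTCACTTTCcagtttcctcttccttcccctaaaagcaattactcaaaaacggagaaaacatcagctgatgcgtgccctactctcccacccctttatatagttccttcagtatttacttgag
IFI44 (chr1:78649669-78649788, plus strand): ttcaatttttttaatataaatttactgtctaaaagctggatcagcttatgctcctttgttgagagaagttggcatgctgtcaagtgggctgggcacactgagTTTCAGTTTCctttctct
ISG15 (chr1:1013377-1013496, plus strand): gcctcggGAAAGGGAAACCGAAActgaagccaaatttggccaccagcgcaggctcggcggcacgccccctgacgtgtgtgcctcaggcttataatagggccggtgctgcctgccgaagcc
IFIT1 and IFIT3, neighbours that bind foreign RNA, each held 2 matches, and their levels were 7.07 and 1.70 FPKM and 27.5 and 7.24 FPKM. In ISG15 the 2 matches overlap in a single run, and in IFI44 the only match lies just before the start. Levels were lower in the resistant library for all 4, with log2 ratios of -2.12, -1.96, -3.75 and -2.22 for IFIT1, IFIT3, IFI44 and ISG15.

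**Figure D3:**
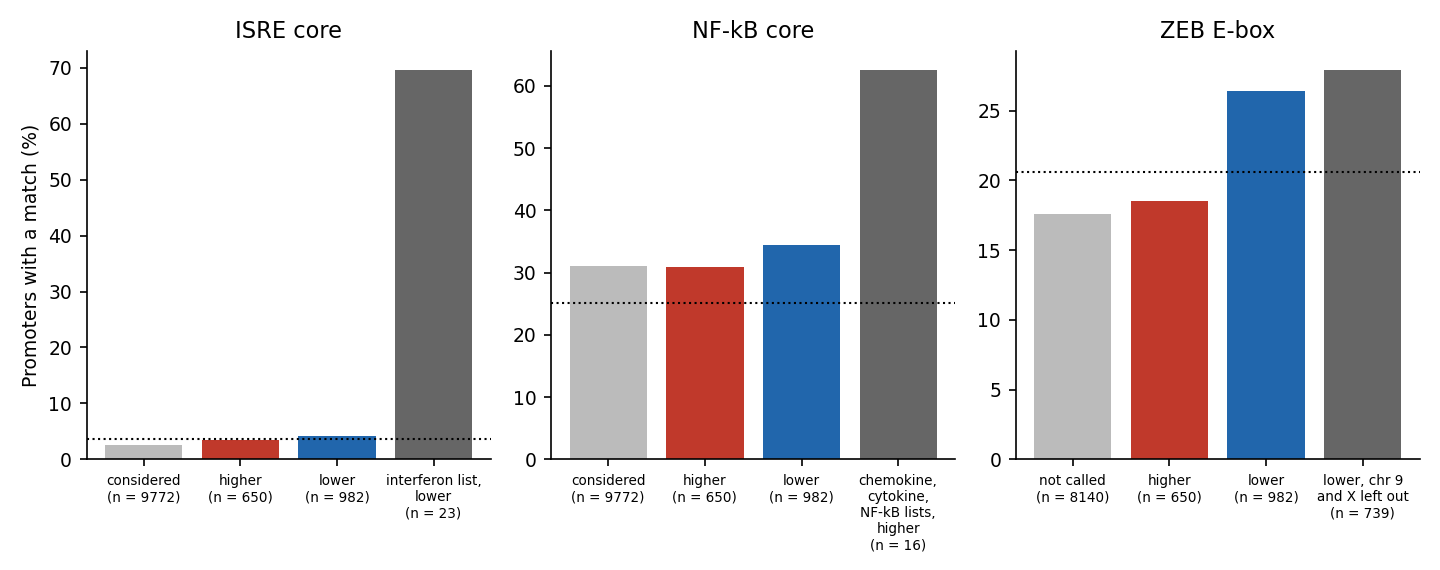
Percent of RefSeq promoters (250 bases before to 50 after the start) that hold the ISRE core, the NF-kappaB core or the ZEB E-box on either strand, by group of genes (n is the number of promoters), with the share of all 27195 promoters as a dotted line. Shares stand at 69.6% for the interferon list, 62.5% for the chemokine, cytokine and NF-kappaB lists, and 26.4% for the E-box among genes called lower.

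Chemokine genes moved the other way. Of 13 considered, 8 were higher and 0 lower, and all 5 considered neutrophil chemokines were among them. In H1975 8 of 15 considered chemokines were higher and 2 lower, and 4 of 6 neutrophil chemokines were among the higher. CXCL5 had 1980 and 21182 counts, a log2 ratio of 3.35 (interval 3.29 to 3.42), and CXCL1 was at 3.54 and 78.2 FPKM. CXCL8, which encodes interleukin 8, was at 2.89 and 15.9 FPKM, CXCL2 at 6.35 and 43.0 FPKM and CXCL3 at 2.11 and 9.88 FPKM. CXCL1, CXCL2, CXCL3 and CXCL5 are near copies with counts that were not whole, so the split between them is uncertain. CCL2, which draws monocytes, was at 0.75 and 17.3 FPKM, and CCL20 had 2 and 21 counts. Of the cytokines, 8 of 22 were higher and 2 lower: CSF2 was at 1.53 and 14.6 FPKM, IL6 at 1.55 and 11.4 FPKM, and IL1RN, the antagonist of interleukin 1, was lower at 1.69 and 0.10 FPKM. Within NF-kappaB itself RELB was higher (3.98 and 12.04 FPKM), REL lower (5.86 and 2.68 FPKM), and NFKB1 and RELA were not called. Of 13 of its feedback genes 5 were higher and 1 lower: TRAF1 (0.15 and 5.92 FPKM), TNIP3 (0.44 and 11.6 FPKM) and BIRC3 (11.2 and 68.2 FPKM) were among the higher, and TNFAIP2 was lower (66.9 and 31.6 FPKM).

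The NF-kappaB core GGGANNNNCC was found in 10 of the 16 promoters (62.5%) available for genes of these 3 lists called higher, in 25.1% of all promoters and in 31.1% of those of considered genes. Among all genes called higher the share was 30.9% and among all called lower 34.5%. NF-kappaB is known to drive chemokine genes, so the motif in these lists describes what such genes are. A match is a description and not a bound site. The bases before the start of 6 of the chemokine genes follow, with the core in capitals.
CXCL8 (chr4:73740449-73740568, plus strand): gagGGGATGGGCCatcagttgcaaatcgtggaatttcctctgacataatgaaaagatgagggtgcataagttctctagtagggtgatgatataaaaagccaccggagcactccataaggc
CXCL1 (chr4:73869273-73869392, plus strand): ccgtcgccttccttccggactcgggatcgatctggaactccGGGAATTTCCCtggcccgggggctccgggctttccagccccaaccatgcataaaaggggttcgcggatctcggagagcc
CXCL2 (chr4:74099196-74099315, minus strand): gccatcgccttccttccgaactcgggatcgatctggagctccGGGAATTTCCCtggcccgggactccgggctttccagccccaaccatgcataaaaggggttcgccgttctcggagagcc
CXCL3 (chr4:74038690-74038809, minus strand): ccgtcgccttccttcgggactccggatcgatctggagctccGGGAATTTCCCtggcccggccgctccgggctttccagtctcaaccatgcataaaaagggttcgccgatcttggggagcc
CXCL5 (chr4:73998678-73998797, minus strand): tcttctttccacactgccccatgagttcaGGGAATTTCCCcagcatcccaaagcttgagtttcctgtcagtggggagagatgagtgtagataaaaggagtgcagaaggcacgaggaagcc
CCL20 (chr2:227813722-227813841, plus strand): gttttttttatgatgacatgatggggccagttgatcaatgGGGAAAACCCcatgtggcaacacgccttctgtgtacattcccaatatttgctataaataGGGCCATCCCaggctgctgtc
CXCL1, CXCL2, CXCL3 and CXCL5, near copies whose promoters are not separate cases, share the run GGGAATTTCCC, which matches on both strands. All 4 were called higher. CCL20 held 2 matches in the printed bases and another before them, and CXCL8 held 1. The CXCL8 bases also hold ggaatttcc, a part of that shared run, in lower case because the searched pattern does not match it there.

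Complement and acute phase genes, which the liver makes in inflammation, were higher in 11 of 22 considered members and lower in 2, with a median log2 ratio of 1.06 (1.67 when at least 5 FPKM and 100 counts were required). C3, the central complement protein, was at 2.18 and 52.6 FPKM, and the complement genes C1R and C1S were at 4.66 and 55.4 FPKM and at 3.56 and 28.8 FPKM. SAA1, a serum amyloid whose near copies leave its count uncertain, was at 17.7 and 248.6 FPKM. LBP, which presents bacterial lipopolysaccharide, was at 0.15 and 7.44 FPKM. CFI, an inhibitor of complement, was lower at 25.7 and 10.3 FPKM. In prostaglandin metabolism PTGS2, the inducible cyclooxygenase, was higher at 1.15 and 26.3 FPKM, while PTGS1, the constitutive enzyme, was lower at 33.4 and 2.30 FPKM. HPGD, which inactivates prostaglandins, was lower at 80.3 and 9.01 FPKM, and their uptake carrier SLCO2A1 was at 9.20 and 0.19 FPKM.

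Clade B serpins, intracellular protease inhibitors, split: 4 of 8 were higher and 2 lower, against 7.07% and 10.9% of all considered genes. SERPINB4 was at 0.95 and 77.9 FPKM and its near copy SERPINB3 at 2.08 and 37.0 FPKM, both with counts that were not whole. SERPINB7 had 3 and 41 counts. SERPINB5, known as maspin in epithelia, was lower at 3.29 and 0.03 FPKM. Class II antigen presentation genes were higher in 6 of 9 and lower in 1, from low levels: HLA-DRA was at 0.21 and 3.15 FPKM and CD74, its invariant chain, at 0.56 and 4.25 FPKM, while CTSS, a protease of the same pathway, was lower at 6.24 and 1.11 FPKM. In H1975 6 of 8 considered class II genes were lower and 0 higher. None of 17 class I genes was called.

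**Figure D4:**
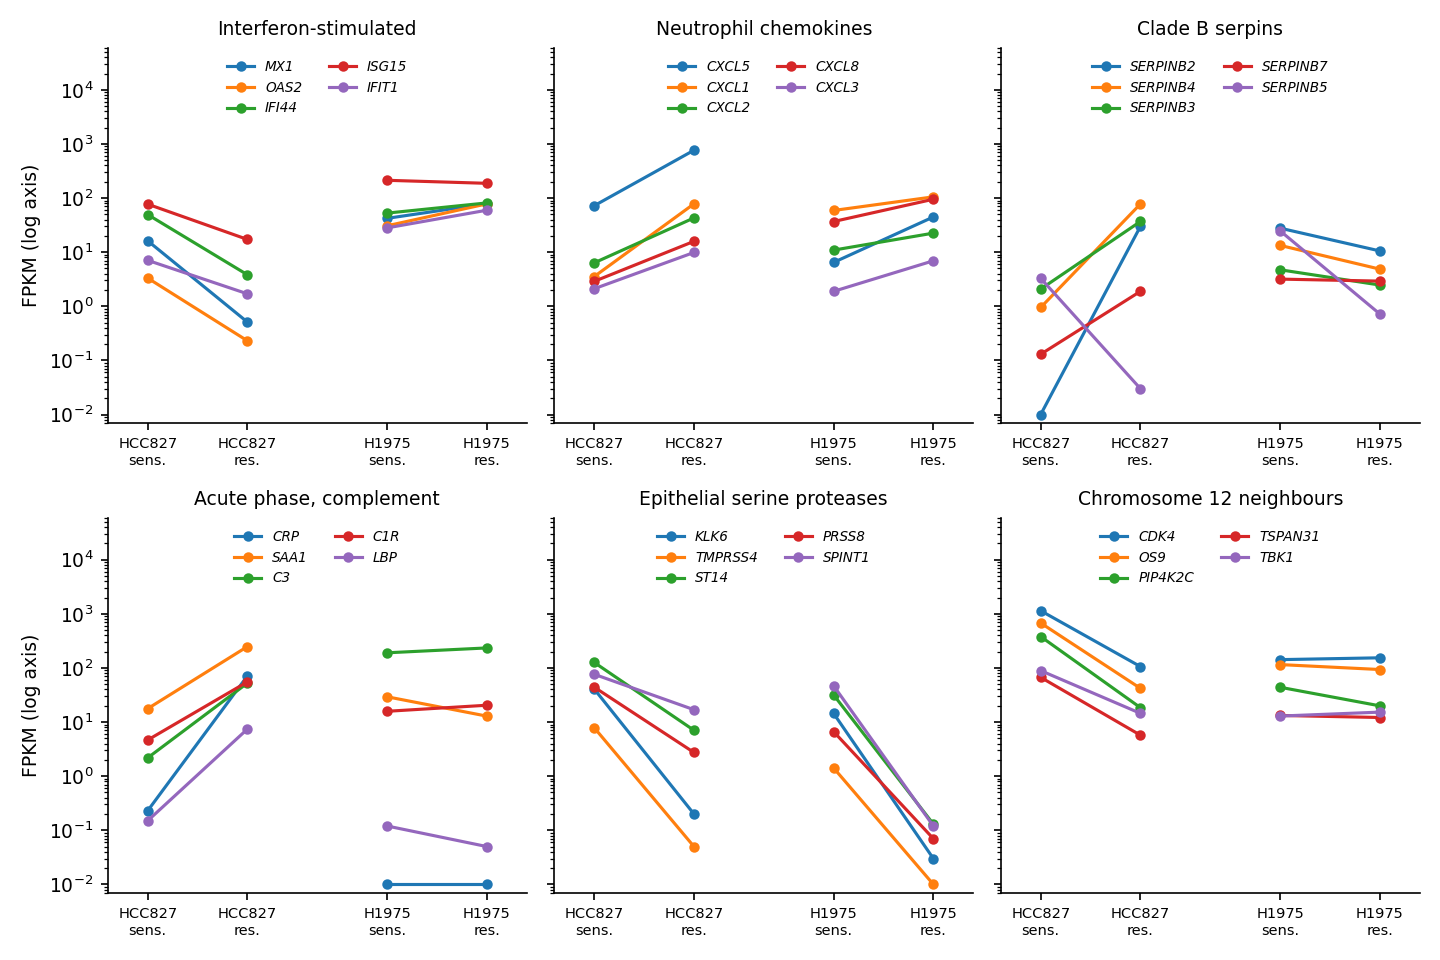
FPKM (log axis) in the 4 libraries, sensitive joined to resistant within each line, for 5 genes of each of 6 groups, with a gene not listed drawn at 0.01. Interferon-stimulated genes and chromosome 12 neighbours go down in HCC827, where chemokines, acute phase genes and 4 serpins go up. Serine proteases go down in both lines, and 4 of the 5 chemokines were also called higher in H1975.

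EGFR was at 850 and 568 FPKM, a log2 ratio of -0.63, under the 2-fold threshold. Of 35 genes of the EGFR relay, which carry its signal, 3 were lower (GAB1, ERRFI1 and PIK3R3) and 0 higher. Among all considered genes 10.9% were lower and 7.07% higher, so the share lower in the relay was near that of all genes. Genes that respond to ERK were lower in 14 of 26 and higher in 2. DUSP6, the ERK phosphatase, was at 20.1 and 1.27 FPKM, and EGR1, an immediate early factor, at 145 and 15.5 FPKM. DUSP1, which acts on stress kinases as well, was higher at 4.31 and 23.2 FPKM. Of 19 other receptor kinases 4 were higher and 5 lower. AXL, known from resistant cells, was higher at 4.74 and 64.5 FPKM, its relative MERTK was lower at 7.91 and 1.19 FPKM, and MET was at 205 and 257 FPKM and not called. Among ligands, AREG was lower at 65.1 and 16.1 FPKM, and HBEGF and NRG1 were higher at 0.92 and 5.02 FPKM and at 10.9 and 38.2 FPKM.

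Metabolic and stress lists differed in how many members were called. FASN, the fatty acid synthase, was at 60.1 and 1.87 FPKM, a log2 ratio of -5.06 (interval -5.28 to -4.84), while the enzymes before it, ACLY (0.65) and ACACA (0.76), were not called. FABP5, a fatty acid carrier, had 221 and 3 counts. PPARGC1A, a regulator of mitochondrial genes, was higher at 0.39 and 4.67 FPKM. Of 22 sterol synthesis genes 4 were lower and 0 higher, and over the whole lipid synthesis list 6 of 47 were lower and 3 higher, near the 10.9% and 7.07% of all genes. Of 14 ATF4 targets, which answer amino acid shortage, 6 were lower and 0 higher, and ATF4 itself (log2 ratio -0.26) was not called. DDIT4, an mTORC1 inhibitor, was at 296 and 25.9 FPKM, and ASNS, asparagine synthetase, at 43.6 and 14.6 FPKM. In serine and folate metabolism 5 of 15 were lower, with PHGDH, the first enzyme of serine synthesis, at 56.0 and 15.9 FPKM. Of 13 hypoxia-inducible genes 5 were lower and 1 higher, among them EGLN3, an oxygen-sensing hydroxylase (16.3 and 1.06 FPKM), and NDRG1 (160 and 32.1 FPKM). Of 15 unfolded protein response genes 1 was called, CREB3L1, which was higher.

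Genes of drug handling went both ways. Of 22 redox targets of NRF2, 5 were lower and 1 higher, with GPX2, a glutathione peroxidase, at 54.0 and 1.5 FPKM, and NFE2L2, which encodes NRF2, at 64.4 and 63.8 FPKM. AKR1B1, an aldose reductase, was higher at 46.3 and 423 FPKM. AKR1C2 had 0 and 143 counts, 45.6-fold higher at the floor, in a family of near copies whose counts were not whole. CYP26A1, which clears retinoic acid, had 212 and 0 counts, 73.9-fold lower at the floor. Of 16 ABC transporters 3 were higher and 4 lower, with ABCB1, the multidrug efflux pump, at 1.21 and 5.23 FPKM. Over all considered genes 7.07% were higher and 10.9% lower.

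Of 59 cell cycle and replication genes 4 were higher and 2 lower, against 7.07% and 10.9% of all considered genes. Of 22 mitosis genes 0 were called, and of 21 replication genes 1 was higher (CDC6). Of 16 G1 cyclins and kinases 3 were higher and 2 lower. CCND1, the partner of CDK4, was lower at 95.7 and 42.7 FPKM, and CCNE1, the cyclin of the next step, was higher at 5.02 and 12.4 FPKM. CDK6 (log2 ratio 0.79) and CDK2 (0.09) were not called. Of 37 considered cell death genes 7 were higher and 3 lower, with a median log2 ratio of -0.10. Of 4 antiapoptotic BCL2 family genes 1 was higher and 0 lower, and of 23 death receptor and caspase genes 4 were higher and 3 lower. BCL2, which blocks apoptosis, had 2 and 107 counts, a log2 ratio of 5.68 (interval 3.79 to 8.74). BID, which promotes it, was higher at 0.77 and 7.02 FPKM, and GSDME, the pore protein of pyroptosis, at 0.88 and 7.74 FPKM. Of 24 ribosomal protein genes 1 was called and of 20 oxidative phosphorylation genes 1, RPS6 and NDUFA1, both lower and both on the stretches of chromosomes 9 and X described above.

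**Figure D5:**
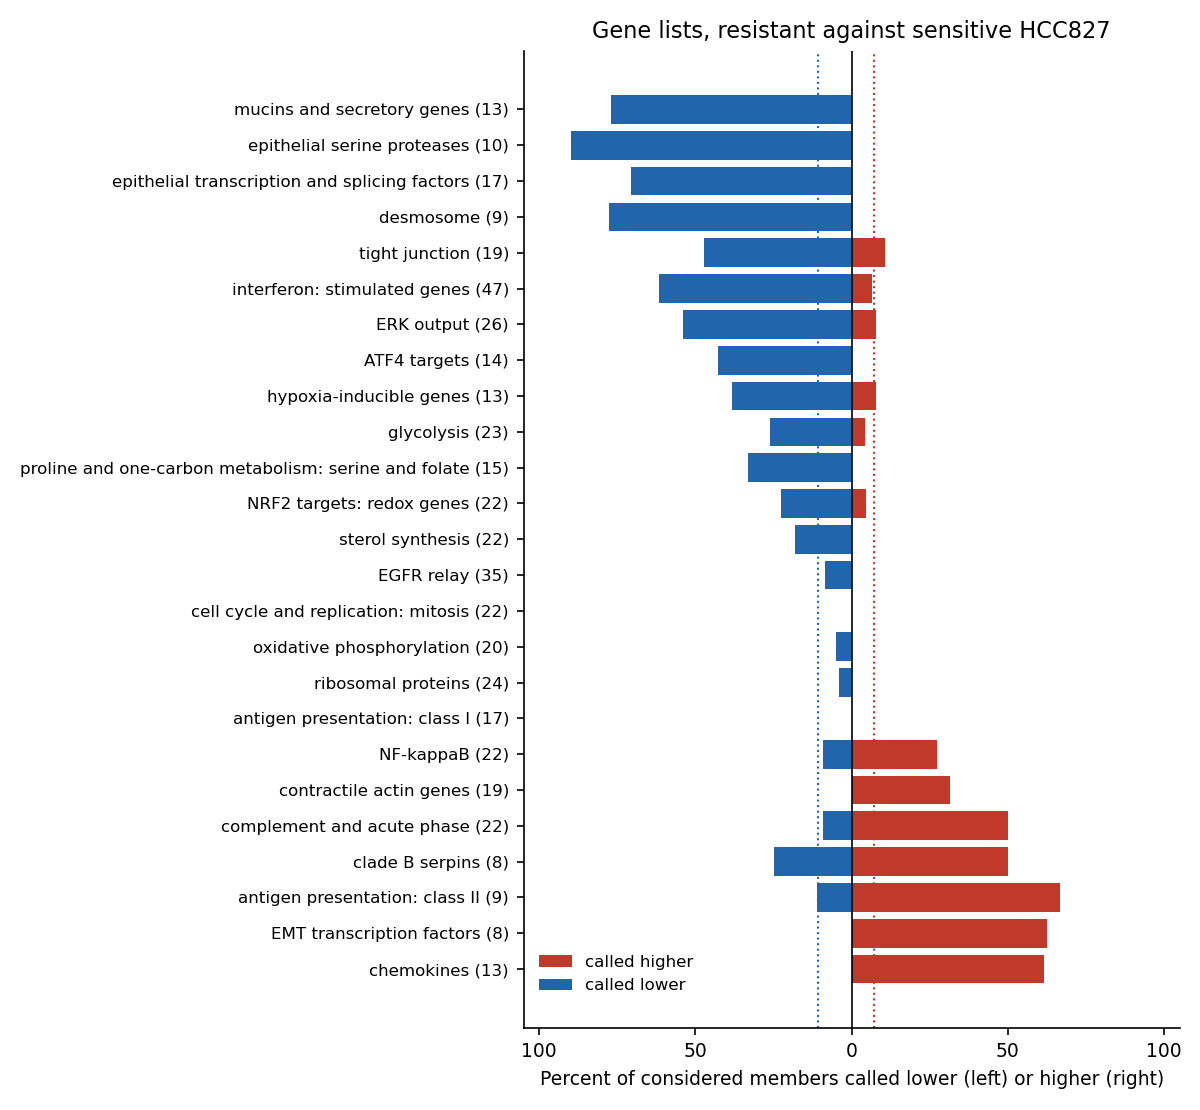
Percent of the considered members of selected gene lists, or parts of lists, called lower (bars to the left) or higher (bars to the right) in resistant HCC827, with the number considered in parentheses and the percent of all considered genes called, 10.9% lower and 7.07% higher, as dotted lines. Lists that went both ways were left out, such as other receptor tyrosine kinases and their ligands (8 higher and 9 lower of 36) and drug metabolism and efflux (10 higher and 13 lower of 46). Among those drawn, epithelial, mucin and interferon lists lie to the left and chemokine, class II and acute phase lists to the right, with mitosis and class I empty.

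The H1975 pair shared part of these calls, in separate libraries and under another drug. Of 10961 genes considered in both lines, 375 were lower in both, which is 35.6% of the HCC827 genes called lower and 49.4% of those in H1975. For higher genes 115 were shared, 18.1% and 42.9%. Over all 10961 genes, 6.92% were called lower and 2.45% higher in H1975. A call in the opposite direction in H1975 was made for 64 of the 634 genes higher in HCC827 (10.1%) and 23 of the 1053 lower (2.18%). GRHL2, KLK6, MUC16, RAB25 and TMPRSS13 were lower and IL32, COL12A1, CADM1, OLR1 and TENM3 higher in both lines. CDKN2A (28.4 and 24.2 FPKM in H1975), NKX2-1 (7.66 and 5.97), CDK4 (142 and 154) and FASN (88.3 and 51.4) were not called in H1975. The difference between the lines was not tested, since each has 1 library a group.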

How the data were processed

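RNA of 4 lung adenocarcinoma libraries was sequenced, and 2 of them, sensitive and resistant HCC827, carry this comparison. The deposited files hold RSEM expected counts per NCBI Gene ID and FPKM, values the authors had already divided by length and depth; HISAT2, Bowtie2, RSEM and hg19 are named in the submitters' processing notes, with roles and versions not given in the sources used here. Expected counts were rounded to whole numbers and scaled by TMM (edgeR 4.0.16; factors 0.982 and 1.018). Intervals are exact Clopper-Pearson intervals of the share of a gene's counts in the resistant library, made into log2 ratios. A gene not listed was set to 3 counts, or to its count at 0.01 FPKM where larger, and its fold rests on that floor. The ratio and call were also run on simulated Poisson counts with known changes and no scaling. Such counts hold counting error only, so the run cannot speak to the spread between cultures. Symbols, chromosomes and gene order came from RefSeq (GRCh38.p14), which gave a symbol for 99.9% of considered genes, and no hg19 coordinate is printed. Members, 52 gene lists (1535 genes, 1534 matched) and motifs were chosen with earlier results of these data known. Named genes were the 15 per direction whose interval lay farthest from equality, the 10 largest gains and losses in FPKM, called or defining list members, and genes of neighbour runs. Alternatives were other scalings (DESeq2 1.42.0 size factors, totals), FPKM ratios with pseudocounts of 1 and 0.1, filters, thresholds, whole counts, run length and promoter window. Python 3.11.15, pandas 2.3.3 and scipy 1.17.1 were used.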

Additional observations from a re-analysis of the deposited data

Results flagged for a closer look

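Genes named for their interval or their change in FPKM are given here where they were called in opposite directions in the 2 lines. Lists are given where their medians had opposite signs and were each at least 0.5 from 0. Both values are shown, and the difference between the lines was not tested, since each group is 1 library. SERPINB2 had a log2 ratio of 7.66 in HCC827 (at the floor, 0 and 635 counts) and -1.36 in H1975 (1183 and 449 counts). SERPINB4, whose counts were not whole, had 6.24 in HCC827 (19 and 1507 counts) and -1.42 in H1975 (527 and 192 counts). ANKRD1 had 5.53 in HCC827 (22 and 1064 counts) and -2.0 in H1975 (135 and 33 counts). The clade B serpins as a list had a median log2 ratio of 2.31 over 8 genes in HCC827 and -0.90 over 9 genes in H1975. Its HCC827 median was 4.12 when at least 5 FPKM and 100 counts were required and 1.03 on the log2(FPKM + 1) scale. Fibroblast and smooth muscle markers had medians of 2.36 in HCC827 and -1.87 in H1975, over 2 genes in each line. Parts of lists also had medians of opposite sign, given as HCC827 and H1975. These were 1.73 and -2.61 for class II antigen presentation, 3.23 and -1.16 for the plasminogen system, 1.41 and -0.81 for acute phase genes, and -0.61 and 0.96 for the HOX C cluster.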

How the results depend on the processing

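Each group is 1 library, so the spread between cultures is unknown. Scaling by totals or by DESeq2 size factors moved the median log2 ratio by 0.052 and 0.018. Requiring 5 FPKM and 100 counts left 480 genes higher and 813 lower, and a 4-fold threshold left 309 and 458, by fewer genes tested and by a stricter rule. The log2(FPKM + 1) scale gave 629 higher and 906 lower, within 1.5 times the main counts, as were the counts under the other settings tried. The share of calls that were higher was 39.4% and ranged from 37.1% to 44.2%; the highest came without chromosomes 9 and X (810 higher, 1024 lower), a setting chosen after seeing the data. Neighbour runs of at least 3 genes numbered 75, against 33 of at least 4. Among list medians, 17 of the recomputed values moved by more than the typical counting error of a member and 186 did not; 13 values of 6 lists changed sign, all of lists with a median within 0.09 of 0. Of the named genes' log2 ratios 104 moved, 146 did not and 0 reversed. Low counts limit genes near the filter, where intervals are widest. No paired analysis was possible because each group has 1 library.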

Other observations

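Axon guidance and synaptic adhesion genes, the list that holds TENM3, went both ways in HCC827, with 4 of 21 considered members higher and 7 lower. The shares over all considered genes were 7.07% higher and 10.9% lower. NTN1 and NTN4, secreted netrins, were at 16.4 and 2.52 FPKM and at 29.3 and 6.30 FPKM, while SEMA3C and SEMA7A, semaphorins, were higher at 6.71 and 21.3 FPKM and at 3.31 and 9.59 FPKM. In the Notch pathway, NOTCH3 was lower at 7.75 and 0.90 FPKM and JAG2, a ligand, higher at 4.14 and 12.6 FPKM. In the insulin-like growth factor axis 4 of 14 members were higher and 4 lower: IGFBP3, a binding protein, was lower at 220 and 57.9 FPKM, and PAPPA, the protease that frees the growth factor from such proteins, had 4 and 218 counts.

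Among enzymes of DNA and histone methylation 2 of 30 were lower, DNMT3A with 470 and 235 counts and DNMT3B with 303 and 136, and 0 higher, below the 10.9% and 7.07% of all considered genes. CD44, a hyaluronan receptor, was higher at 99.7 and 294 FPKM, and CD24, a surface glycoprotein whose count was not whole, was lower at 448 and 217 FPKM.

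Of the other motifs searched on both strands of the same promoters, CRE (TGACGTCA) was present in 0.815% of genes called lower, 2.92% of genes called higher, 3.62% of genes not called and 1.98% of all promoters. AP-1 (TGANTCA) was present in 6.42%, 7.23%, 4.02% and 7.73% of the same groups, and GRHL (AACCNGTT) in 1.63%, 0.615%, 1.24% and 1.73%. TEAD (GGAATG) was present in 108 of 982 promoters of genes called lower, 85 of 650 called higher, 850 of 8140 not called and 3819 of all 27195. EGR1 (GCGTGGGCG) was present in 1.43%, 0.769%, 1.38% and 0.787%, and the NRF2 core (TGACNNNGC) in 15.5%, 13.8%, 15.3% and 13.6%.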
